A study of Mus musculus with 6 samples.

Results

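The nucleolar ribosome biogenesis factors described here are 60 proteins that process ribosomal RNA (rRNA) and assemble it with ribosomal proteins, taken as a given list of gene names out of 25690 gene symbols in the tables. The list and its roles were chosen with earlier results of these data known, so no test over the list was made. All 60 were present and all 60 were among the 15474 genes with enough counts for a test. They were divided by role into 9 factors of the small nucleolar ribonucleoproteins (snoRNPs), 25 factors of the small (40S) subunit, 22 of the large (60S) subunit and 4 multifunctional nucleolar proteins. RNA-seq was performed on CD27SP NK cells, the immature NK1.1+CD27+CD11b− subset, sorted from the bone marrow (BM) of mice with floxed *Myc* (*Ncr1cre Myc* fl/fl) and of controls (*Ncr1cre Myc* wt/wt). Each genotype had 3 libraries, numbered 1, 2 and 4. Both genotypes carry *Ncr1cre*, which expresses the Cre recombinase from the *Ncr1* locus once a cell makes NKp46, and both are on a C57BL/6 background. In *Ncr1cre Myc* fl/fl cells Cre excises *Myc*, so cells that had only just switched on Cre can still hold *Myc* RNA. The mice were untreated, sex- and age-matched, and aged 6 to 14 weeks. Whether each library came from 1 mouse or from pooled mice is not given in the sources used here, so P-values measure the spread between these libraries.

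Ribosomes are made in the nucleolus, where a long precursor rRNA is cut, chemically modified and folded while assembly factors and ribosomal proteins join it. Box C/D snoRNPs guide 2′-O-methylation of rRNA and H/ACA snoRNPs guide the conversion of uridine to pseudouridine. The small-subunit (SSU) processome, built around the U3 snoRNP, folds the 40S precursor, and another set of factors, helicases and GTPases shapes the 60S precursor. Genes of this machinery are among the best known targets of the transcription factor Myc, and lymphocytes need them to grow before they divide.

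The libraries differed in depth. *Ncr1cre Myc* wt/wt library 1 held 8101219 estimated counts, against between 54550907 and 64962491 in the other five. *Myc* itself was lower in every *Ncr1cre Myc* fl/fl library, at 200.5, 183.4 and 164.3 CPM (counts scaled to the TMM-normalized library size) in wt/wt and 61.5, 64.6 and 76.5 in fl/fl libraries 1, 2 and 4. Its log2 fold change of −1.44 (standard error, SE, 0.155) had an adjusted p of 0.00189, by the quasi-likelihood test of edgeR with Benjamini-Hochberg adjustment over all genes tested. The cells had the NK cell markers of their label, in a list that included *Cd27* but not the gene for CD11b. All 10 were detected, and their summed level was 14300 to 14900 CPM in wt/wt and 16300 to 17100 in fl/fl libraries. Of the 10, 7 had a positive log2 fold change and 3 a negative, with *Prf1* at 0.93 and *Gzma* at −0.64. None passed the threshold of an adjusted p under 0.01 and a log2 fold change of at least 0.5 in size. Of all genes tested, 1.28% passed it as higher and 0.872% as lower. Markers of other BM cells were present as well. Those of basophils and mast cells, neutrophils and myeloid progenitors, and erythroid cells were more abundant in fl/fl libraries, and those of T cells overlapped. The 7 basophil and mast cell markers summed to between 12.6 and 16.0 CPM in wt/wt and between 111 and 322 in fl/fl libraries, with 7 of 7 past the threshold. The 9 neutrophil and myeloid progenitor markers summed to 85.4 to 140 and 538 to 897 CPM, with 4 of 8 tested past the threshold, and 6 erythroid markers to 43.1 to 278 and 527 to 1140 CPM, with 1 of 6 past it. The 5 T cell markers summed to between 227 and 473 CPM in wt/wt and between 237 and 317 in fl/fl libraries, and none passed the threshold. None of these markers was at 0 in every library. The 11 proliferation genes summed to between 1560 and 1950 CPM in wt/wt and between 764 and 1080 in fl/fl libraries, with 11 of 11 lower, 3 of them past the threshold. The part of these cell type and proliferation differences in the values below was not tested, and in bulk RNA fewer cells with a transcript cannot be told apart from less of it per cell.

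By count, 58 of the 60 factors had a negative log2 fold change in *Ncr1cre Myc* fl/fl cells, against 48.5% of all genes tested. Every fl/fl library lay below every wt/wt library for 46 of the 60, while 15.1% of all genes tested showed that separation, in TPM it was 39 against 10.9%, and the separation in CPM held in the opposite direction for none of the 60 against 16.2% of all genes. The median log2 fold change was −0.52 for the 60 factors and 0.014 for all genes tested. To be past the threshold, a gene needed an adjusted p under 0.01 together with a log2 fold change of 0.5 or more in size. By this rule *Nop58*, *Dkc1*, *Nhp2*, *Tsr1*, *Nop16* and *Npm1*, 6 of the 60, fell and none rose, where 0.872% of all genes tested fell and 1.28% rose. At an adjusted p below 0.05 with no limit on the fold change the count was 24 lower and none higher (background 3.38% and 4.45%), and at an unadjusted p below 0.05 it was 43 lower and none higher (background 10.2% and 12.4%). The count of 6 depended on the fit. When a gene had to pass in edgeR, limma-trend and DESeq2 alike, it was 4 (*Dkc1*, *Nhp2*, *Nop58* and *Npm1*), without *Tsr1* and *Nop16*, beside 0.679% of all genes. The count was 13 without the replicate number as a block (background 1.19%) and 24 in DESeq2 (background 3.68%), but 1 with offsets from effective transcript lengths (*Nop58*, background 0.0517%) and 0 without both libraries of replicate 1, where the background was 0.0636%. Without the shallow wt/wt library 1 alone and with no block it was 5 (*Dkc1*, *Nhp2*, *Noc2l*, *Nop58* and *Npm1*), beside 0.814% of all genes, with a median of −0.42 for the 60 factors.

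**Figure D1:**
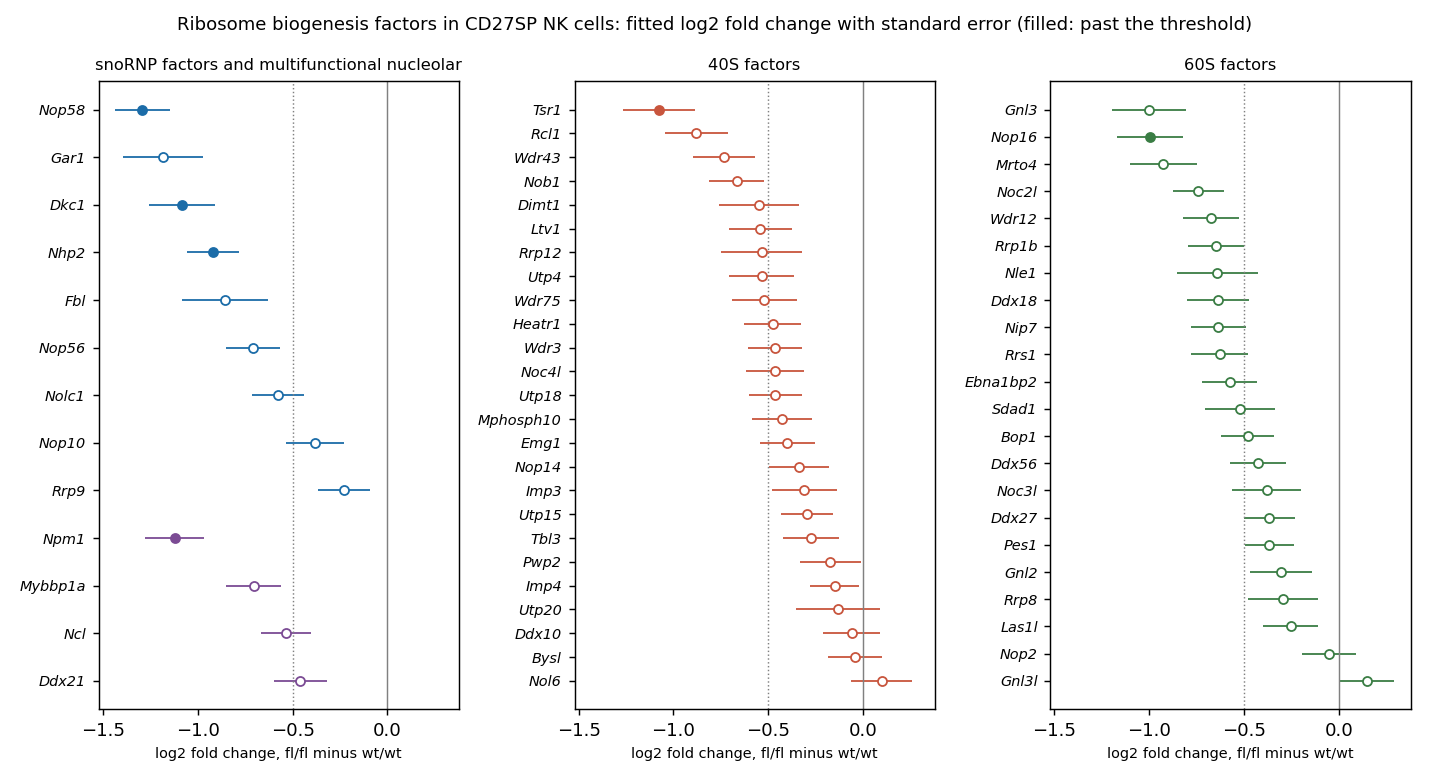
Fitted log2 fold change (x axis, fl/fl minus wt/wt, edgeR) of each of the 60 factors, by role, with the standard error as a bar; filled points passed the threshold, the solid line marks 0 and the dotted line −0.5. The 6 filled points lie between −1.29 and −0.92, and *Nol6* and *Gnl3l* are the only points right of 0.

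As a share of all estimated counts, the 60 genes held 0.569%, 0.538% and 0.527% in wt/wt libraries 1, 2 and 4 and 0.360%, 0.378% and 0.367% in fl/fl libraries 1, 2 and 4. On average this was 0.545 ± 0.0218% against 0.368 ± 0.00934% (SD, n = 3 each), so the fl/fl share was 67.6% of the wt/wt share and the genotypes did not overlap. By role, the fl/fl share relative to wt/wt was 58.3% for the snoRNP factors, 60.5% for the multifunctional proteins, 70.6% for the 60S factors and 75.8% for the 40S factors. The order of these roles is a description, since no test was made between them. The shallow wt/wt library gave the highest of the 3 wt/wt CPM values for 40 of the 60 factors, against 39.2% of all genes tested.

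**Figure D2:**
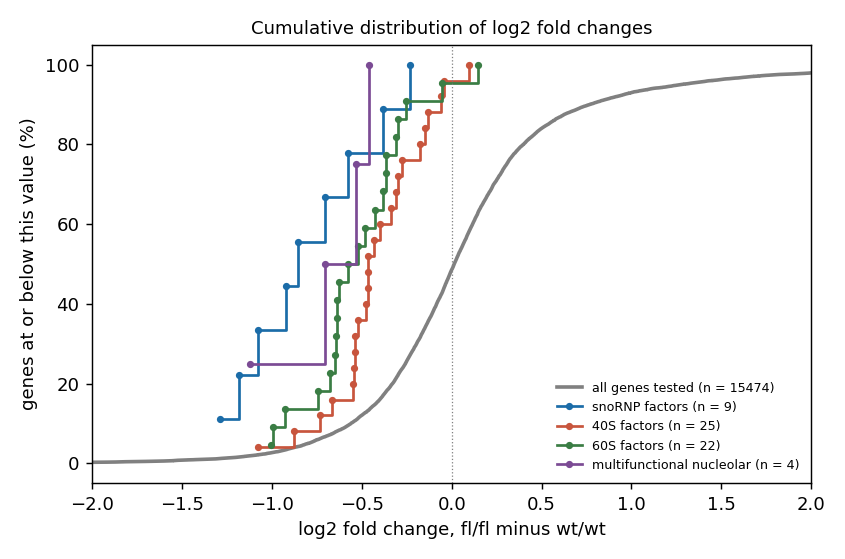
Cumulative share of genes (y axis, percent) at or below each log2 fold change (x axis, fl/fl minus wt/wt, shown from −2 to 2) for the 4 roles and for all 15474 genes tested in grey. The medians of the 4 roles lie left of that of all genes, at −0.86 (snoRNP), −0.62 (multifunctional), −0.55 (60S) and −0.46 (40S) against 0.014.

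Among the snoRNP factors, all 9 were lower. All 9 had every fl/fl library below every wt/wt library in CPM, against 15.1% of all genes tested. In TPM this held for 6 (background 10.9%), and the libraries of *Fbl*, *Nop10* and *Rrp9* overlapped. Of the 9, 3 fell past the threshold (background 0.872%), 7 had an adjusted p below 0.05 (background 3.38%), and the median was −0.86. *Nop58* (chromosome 1 of GRCm38, 59684971 to 59719044), a core scaffold of box C/D snoRNPs, was at 136.9, 128.9 and 112.8 CPM in wt/wt libraries 1, 2 and 4 and at 55.5, 45.2 and 54.2 in fl/fl libraries 1, 2 and 4. All 3 fl/fl values were less than the lowest wt/wt value by a wide margin. They averaged 126 ± 12.3 against 51.6 ± 5.62 CPM (SD, n = 3 each), and the log2 fold change of −1.29 (SE 0.14, edgeR adjusted p = 0.00204) was the largest fall of the 60. *Nop58* passed the threshold in every fit but that without replicate 1, where edgeR gave an adjusted p of 0.0115 at −1.28.

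*Nop56*, the paralogous partner of Nop58 in the same particle, had the highest mean TPM of the snoRNP factors over all 6 libraries, at 306 ± 47.0 TPM in wt/wt and 195 ± 22.0 TPM in fl/fl cells (TPM scales counts by transcript length as well as depth; SD, n = 3 each). *Dkc1* was above it in wt/wt cells, at 331 ± 74.9 TPM, and below it in fl/fl cells, at 153 ± 17.6 TPM. In CPM *Nop56* had 255.8, 226.0 and 213.1 in wt/wt and 132.3, 143.6 and 148.7 in fl/fl libraries. These did not overlap, yet the log2 fold change of −0.71 had an adjusted p of 0.0171 in edgeR, short of the threshold. Set against each other within each library, the log2 ratio of *Nop58* to *Nop56* was −0.90, −0.81 and −0.92 in wt/wt and −1.25, −1.67 and −1.46 in fl/fl libraries. The genotype means differed by −0.58 without overlap of libraries. By a two-sided exact permutation test p was 0.10, which is as low as 3 against 3 can reach, and 0.15 when adjusted over 6 such ratios. *Fbl*, the methyltransferase of the particle, had 35.2, 63.3 and 69.7 CPM in wt/wt and 32.5, 23.8 and 35.0 in fl/fl libraries. Its shallow wt/wt library lay next to the fl/fl values, and the log2 fold change was −0.86 with an adjusted p of 0.0482 in edgeR. The log2 fold change was −0.56 without replicate 2 (adjusted p = 0.202, edgeR) and −1.20 without replicate 1 (adjusted p = 0.0158, edgeR).

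In the H/ACA particle, *Dkc1* (chromosome X, 75095854 to 75109777), the pseudouridine synthase dyskerin, fell from 300.8, 226.1 and 227.6 CPM in wt/wt to 101.5, 136.4 and 117.8 CPM in fl/fl libraries. The shallow wt/wt library was the highest of all, and the fl/fl mean was 47.2% of the wt/wt mean (log2 fold change −1.08, SE 0.17, edgeR adjusted p = 0.00749). *Nhp2* (chromosome 11, 51619735 to 51623714), an RNA-binding core protein, had 86.4, 113.2 and 118.6 CPM in wt/wt and 51.5, 56.4 and 59.3 in fl/fl libraries. Here the shallow library was the lowest of the wt/wt values and still above all fl/fl values (log2 fold change −0.92, SE 0.14, edgeR adjusted p = 0.00553). *Gar1*, also a core protein, had a log2 fold change of −1.18 but a low level, 28.2 to 34.2 CPM in wt/wt and 10.4 to 16.5 in fl/fl libraries, and missed the threshold at an adjusted p of 0.0107 in edgeR.

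*Nop10*, the smallest H/ACA protein, had the log2 fold change closest to 0 in this particle. It had 133.4, 153.6 and 168.6 CPM in wt/wt and 118.7, 129.3 and 102.0 in fl/fl libraries, a log2 fold change of −0.38 with an adjusted p of 0.167 in edgeR. Over all fits its log2 fold change ran from −0.488 to −0.228. The log2 ratio of *Dkc1* to *Nop10* was 1.17, 0.56 and 0.43 in wt/wt and −0.23, 0.077 and 0.21 in fl/fl libraries. This ratio, chosen after the values were seen, differed by −0.70 with no overlap (two-sided exact permutation p = 0.10, adjusted p = 0.15 over the 6 ratios). That of *Fbl* to *Nop56* differed by −0.13 and overlapped (exact permutation p = 0.80). *Nolc1*, a snoRNP chaperone, had a log2 fold change of −0.58 (adjusted p = 0.0334, edgeR), and *Rrp9*, a protein of the U3 snoRNP, −0.23 (adjusted p = 0.375, edgeR).

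**Figure D3:**
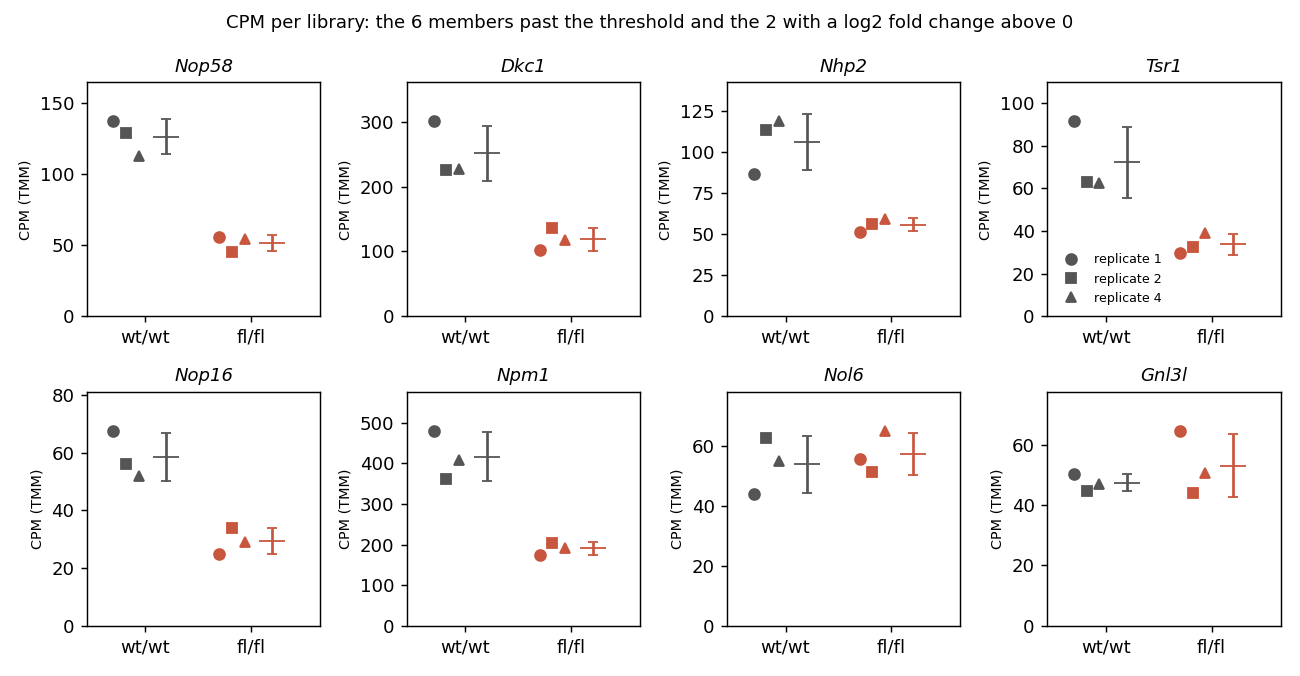
CPM (y axis, from 0) in each library of the 6 factors past the threshold and of *Nol6* and *Gnl3l*, in wt/wt (grey) and fl/fl (red) cells; symbols mark replicates 1, 2 and 4, and the bar beside them is the mean ± SD (n = 3). The fl/fl points lie below all wt/wt points for the first 6 genes and overlap them for the last pair.

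Of the 25 factors of the 40S subunit, 24 were lower and 1 was higher. Every fl/fl library lay below every wt/wt library for 15 (14 in TPM), and 10 overlapped, where 15.1% of all genes tested (10.9% in TPM) separated so. Past the threshold was 1, *Tsr1* (background 0.872%), and 4 had an adjusted p below 0.05 (*Tsr1*, *Rcl1*, *Nob1* and *Wdr43*, background 3.38%). *Tsr1* (chromosome 11, 74898071 to 74909342), a GTPase-like factor of late 40S precursors, had 91.5, 62.8 and 62.3 CPM in wt/wt and 29.6, 32.7 and 38.9 in fl/fl libraries. Its log2 fold change was −1.08 (SE 0.19, edgeR adjusted p = 0.00995), just inside the limit, and without the shallow wt/wt library and the block it was −0.91 with an adjusted p of 0.0117.

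Within the UTP-A complex, which binds the nascent rRNA first, all 5 members were lower. *Wdr43* had 241.1, 201.6 and 177.6 CPM in wt/wt and 106.7, 136.4 and 128.2 in fl/fl libraries, without overlap (log2 fold change −0.73, edgeR adjusted p = 0.0268). *Heatr1*, *Wdr75*, *Utp4* and *Utp15* had log2 fold changes between −0.54 and −0.30 and adjusted p-values in edgeR between 0.0873 and 0.238. Without replicate 1, *Wdr75* was at −0.32, *Utp4* at −0.30 and *Heatr1* at −0.53. *Utp15* was at −0.19 without the shallow wt/wt library and the block. The 4 members of UTP-B, *Pwp2*, *Tbl3*, *Utp18* and *Wdr3*, lay between −0.47 and −0.17, and none had an adjusted p below 0.05 in edgeR. At an unadjusted p below 0.05, 2 of them were lower and none higher (background 10.2% and 12.4%).

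The 10 other factors of the SSU processome had a median of −0.32 and spanned −0.88 to 0.097, with 1 of them at an adjusted p below 0.05 (background 3.38%). That was *Rcl1*, a protein needed for cleavage of the precursor, with 45.3, 43.4 and 45.6 CPM in wt/wt and 20.1, 27.1 and 26.3 in fl/fl libraries (log2 fold change −0.88, edgeR adjusted p = 0.0126). Its 3 wt/wt libraries were close to each other and well above all fl/fl libraries. *Emg1*, the methyltransferase that was the most abundant 40S factor per length (205 ± 20.6 TPM in wt/wt and 164 ± 17.8 in fl/fl cells), had 146.2, 121.8 and 127.0 CPM in wt/wt and 93.9, 112.7 and 92.7 in fl/fl libraries (log2 fold change −0.40, edgeR adjusted p = 0.136). *Nol6* (chromosome 4, 41114427 to 41124455), an RNA-associated processome protein, was the 1 with a positive value: 43.9, 62.8 and 55.1 CPM in wt/wt and 55.7, 51.6 and 65.3 in fl/fl libraries. The genotypes overlapped (log2 fold change 0.097, SE 0.16, edgeR adjusted p = 0.794), and the sign turned to −0.050 without the shallow library and the block. *Ddx10*, *Utp20* and *Imp4* were also close to 0, at −0.061, −0.13 and −0.15.

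Factors that act on later 40S precursors spread widely. *Nob1*, the nuclease that makes the final cut of 18S rRNA, had 57.42, 49.00 and 50.04 CPM in wt/wt and 32.1, 34.4 and 31.7 in fl/fl libraries (log2 fold change −0.67, edgeR adjusted p = 0.0249). *Ltv1*, *Dimt1* and *Rrp12* lay at −0.54, −0.55 and −0.54 with adjusted p-values in edgeR from 0.0843 to 0.170. *Dimt1* was at −0.34 without the shallow wt/wt library and the block, and *Ltv1* at −0.33 without replicate 1. *Bysl*, a factor bound to the same precursors, had a log2 fold change of −0.044 (adjusted p = 0.907, edgeR) with overlapping libraries, so the members of this stage ran from −1.08 to −0.044.

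Of the 22 factors of the 60S subunit, 21 were lower and 1 was higher. Every fl/fl library lay below every wt/wt library for 18 (15 in TPM), against 15.1% of all genes tested (10.9% in TPM). Past the threshold 1 fell (background 0.872%), and 10 had an adjusted p below 0.05 (background 3.38%). *Nop16* (chromosome 13, 54584185 to 54590090), a nucleolar factor of early 60S precursors, fell from 67.6, 56.1 and 51.8 CPM in wt/wt to 24.9, 33.8 and 29.2 CPM in fl/fl libraries. The fl/fl mean was 50.1% of the wt/wt mean (log2 fold change −0.99, SE 0.17, edgeR adjusted p = 0.00982), and the adjusted p was 0.0147 without the shallow library and the block. *Noc2l*, a scaffold of early 60S particles, was near the threshold at 193.6, 205.8 and 179.2 CPM in wt/wt and 108.0, 117.5 and 120.0 in fl/fl libraries (log2 fold change −0.74, edgeR adjusted p = 0.0112). *Mrto4*, which holds the place of a stalk protein on the precursor, had a log2 fold change of −0.93 (adjusted p = 0.0136, edgeR), with 36.7 to 46.3 CPM in wt/wt and 18.8 to 22.4 in fl/fl libraries.

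The PeBoW complex, made of *Pes1*, *Bop1* and *Wdr12* and needed for processing of the 60S rRNAs, had all 3 members lower without overlap, at −0.37, −0.48 and −0.68, and *Wdr12* alone had an adjusted p below 0.05 (0.0248, edgeR). *Ebna1bp2*, the most abundant 60S factor per length at 130 ± 20.97 TPM in wt/wt and 91.1 ± 8.08 in fl/fl cells, had 120.3, 86.9 and 86.6 CPM in wt/wt and 66.5, 66.2 and 61.8 in fl/fl libraries (log2 fold change −0.58, edgeR adjusted p = 0.0414). The shallow library was well above the other wt/wt values. *Rrs1*, *Nip7*, *Rrp1b* and *Ddx18* had log2 fold changes between −0.65 and −0.63 and adjusted p-values in edgeR from 0.0276 to 0.0433. *Nop2*, a methyltransferase of 28S rRNA, was nearly level, at −0.055 with overlapping libraries (adjusted p = 0.879, edgeR).

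The nucleolar GTPases differed among themselves. *Gnl3*, nucleostemin, had 94.1, 69.8 and 65.4 CPM in wt/wt and 30.4, 41.8 and 41.3 in fl/fl libraries (log2 fold change −1.003, SE 0.20, edgeR adjusted p = 0.0155). Its paralog *Gnl3l* (chromosome X, 150983141 to 151017322) had 50.4, 44.8 and 47.2 CPM in wt/wt and 64.69, 43.95 and 50.78 in fl/fl libraries, which overlap. Its log2 fold change was 0.14 (edgeR adjusted p = 0.630), and 0.040 without replicate 1. The log2 ratio of *Gnl3* to *Gnl3l* was 0.90, 0.64 and 0.47 in wt/wt and −1.09, −0.074 and −0.30 in fl/fl libraries, so *Gnl3* had more counts than *Gnl3l* in every wt/wt library and fewer in every fl/fl library. The mean ratio differed by −1.16 (two-sided exact permutation p = 0.10, adjusted p = 0.15 over the 6 ratios). It was lowest in fl/fl library 1, and without replicate 1 the log2 fold change of *Gnl3* was −0.70. *Gnl2* lay between *Gnl3* and *Gnl3l*, at −0.31 (adjusted p = 0.315, edgeR). It was at −0.18 without the shallow wt/wt library and the block, and at −0.090 without replicate 1. In the NOC family, the log2 fold changes were −0.74 for *Noc2l*, −0.38 for *Noc3l*, its partner in 60S particles (adjusted p = 0.245, edgeR), and −0.47 for *Noc4l*, which acts on the 40S side (adjusted p = 0.0982, edgeR). The ratio of *Noc2l* to *Noc3l* overlapped between genotypes (difference −0.36, exact permutation p = 0.20), and that to *Noc4l* did not (difference −0.27, exact permutation p = 0.10, adjusted p = 0.24 and 0.15 over the 6 ratios).

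All 4 multifunctional nucleolar proteins were lower. For each of them every fl/fl library was below every wt/wt library, against 15.1% of all genes tested. *Npm1* (chromosome 11, 33152287 to 33163206), the histone chaperone nucleophosmin, was the most abundant of the 60 genes per length, at 462 ± 85.3 TPM in wt/wt and 221 ± 13.7 TPM in fl/fl cells (SD, n = 3 each). It had 480.6, 360.5 and 408.9 CPM in wt/wt and 174.6, 205.0 and 192.0 in fl/fl libraries. The fl/fl level was 45.7% of the wt/wt level (log2 fold change −1.12, SE 0.16, edgeR adjusted p = 0.00447), and *Npm1* kept its call without the shallow library and the block (adjusted p = 0.00446). *Ncl*, nucleolin, had 585.2, 459.0 and 530.8 CPM in wt/wt and 377.5, 355.9 and 349.6 in fl/fl libraries, a log2 fold change of −0.53 (adjusted p = 0.0417, edgeR). *Mybbp1a*, a regulator of rRNA synthesis, had −0.70 (adjusted p = 0.0197, edgeR), and *Ddx21*, a helicase that links rRNA transcription and processing, had −0.46 (adjusted p = 0.0840, edgeR).

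A feature the list did not use is the snoRNA gene. Many box C/D and H/ACA snoRNAs are cut out of introns of genes for ribosome and nucleolar proteins. In the GENCODE M21 annotation, 7 of the 60 factors (11.7%) hold at least 1 annotated snoRNA gene on the same strand within an intron, against 206 of 13861 other protein-coding genes tested (1.49%). The 7 are *Nop58*, *Dkc1*, *Tsr1*, *Gnl3*, *Wdr43*, *Nop56* and *Ncl*. Their log2 fold changes ran from −1.29 to −0.53 with a median of −1.003, and those of the other 53 factors from −1.18 to 0.14 with a median of −0.47. Among the other genes tested the medians were −0.24 for snoRNA hosts and 0.029 for the rest. The comparison of hosts was chosen after the values were seen and is a description, with no test, and the median of the 7 was −0.70 without replicate 1. The snoRNAs themselves are not among the transcripts of the tables. For the 6 hosts with a gene named *Snord* that has both boxes, the first along the host (in *Gnl3* after Snord19, which lacks the pair) is shown to make plain what their introns encode, 5′ to 3′ as in the GENCODE M21 transcripts, with box C (TGATG, starting within the first 21 bases) and box D (CTGA, its last occurrence, starting within the last 20 bases) in capitals, a pair of motifs found in this arrangement in 357 of the 1507 annotated snoRNA genes (23.7%, searched on the snoRNA strand).
Snord70 in *Nop58*, chr1:59691934-59692020, plus strand: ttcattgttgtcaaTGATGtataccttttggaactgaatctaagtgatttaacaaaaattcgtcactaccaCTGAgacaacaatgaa
Snord91a in *Tsr1*, chr11:74905424-74905516, plus strand: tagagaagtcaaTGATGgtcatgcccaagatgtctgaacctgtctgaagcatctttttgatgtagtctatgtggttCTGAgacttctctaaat
Snord69 in *Gnl3*, chr14:31014287-31014366, minus strand: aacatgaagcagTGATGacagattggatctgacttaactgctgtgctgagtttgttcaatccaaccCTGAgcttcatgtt
Snord92 in *Wdr43*, chr17:71631281-71631365, plus strand: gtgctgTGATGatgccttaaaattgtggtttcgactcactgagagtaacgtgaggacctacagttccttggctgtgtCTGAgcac
Snord110 in *Nop56*, chr2:130275506-130275573, plus strand: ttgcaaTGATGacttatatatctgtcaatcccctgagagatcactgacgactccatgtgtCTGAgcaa
Snord82 in *Ncl*, chr1:86356261-86356330, minus strand: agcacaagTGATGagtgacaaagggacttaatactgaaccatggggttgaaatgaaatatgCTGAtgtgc

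**Figure D4:**
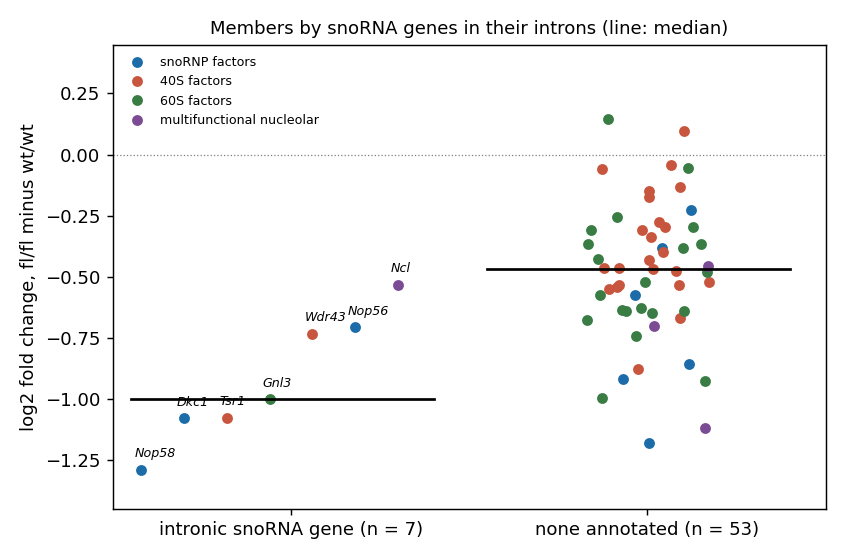
Log2 fold change (y axis, fl/fl minus wt/wt) of the 7 factors with an annotated snoRNA gene in an intron and of the 53 without; each point is a gene coloured by role, spread sideways for legibility, and the black lines are the medians. The medians are −1.003 and −0.47, and the highest of the 7 hosts is *Ncl* at −0.53.

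The canonical E-box CACGTG, a palindrome that Myc-Max dimers bind, was looked for in the RefSeq promoter windows of 300 bases (GRCm38.p6), from 250 bases before to 50 after each start site. A window was found for 51 of the 60 factors, and 12 of the 51 (23.5%) held the letters, against 11% of the genes tested that had a window and 8.09% of all 27025 genes with a window. By role they were in 7 of 22 40S, 4 of 18 60S, 1 of 3 multifunctional and 0 of 8 snoRNP factors. The 12 with the letters had a median log2 fold change of −0.53 and the 39 without −0.52, and no test was made between them. Stretches of 30 bases around the match are shown for the pair of 12 with the lowest log2 fold changes and the pair with the highest, 5′ to 3′ on the strand of the gene, with the match in capitals.
*Tsr1*, chr11:74898092-74898121, plus strand, 24 bases after the start site: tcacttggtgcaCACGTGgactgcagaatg
*Wdr43*, chr17:71616220-71616249, plus strand, 17 bases after the start site: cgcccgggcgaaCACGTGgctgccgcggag
*Utp20*, chr10:88826765-88826794, minus strand, 37 bases after the start site: cccagcggcactaactaCACGTGaggaaaa
*Nop2*, chr6:125131811-125131840, plus strand, at −60 bases from the start site: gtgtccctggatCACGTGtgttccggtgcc
The windows differ in their flanks and share the 6 letters, and a match says nothing on whether a factor was bound there in these cells.

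Counts were also divided by transcript type, since transcripts that keep an intron are counted with the gene. Transcripts not annotated as protein-coding held 21%, 18.5% and 18.4% of the counts of the 60 genes in wt/wt and 18.5%, 18.2% and 19.3% in fl/fl libraries 1, 2 and 4, so the genotypes overlapped. For *Tbl3*, between 93.5% and 96.7% of counts were on transcripts with a retained intron in every library, and its value is mostly that of these transcripts. On its protein-coding transcripts alone the log2 fold change was −0.78 in place of −0.28 (edgeR adjusted p = 0.192). For *Ncl* retained-intron transcripts held between 75% and 82.5%, and on coding transcripts alone it was at −0.41 (edgeR adjusted p = 0.106). For *Mybbp1a* they held 43.2% in the shallow wt/wt library and between 3.32% and 10.9% in the others, and on coding transcripts alone it was at −0.52 (edgeR adjusted p = 0.0704). *Fbl*, *Nolc1* and *Ebna1bp2* were the further members whose adjusted p in edgeR was below 0.05 with all transcripts and between 0.0525 and 0.0694 with coding transcripts alone. Of the 39 members with counts on retained-intron transcripts, the share on them was higher in every fl/fl than in every wt/wt library for 3 (*Gnl3*, *Las1l* and *Tbl3*) and lower for 1 (*Sdad1*), where 5.56% and 7.3% of the genes tested with such counts separated. These counts are a description, with no test. For *Gnl3* the share was 17.7%, 28.0% and 27.5% in wt/wt and 35.8%, 32.2% and 39.9% in fl/fl libraries, with the shallow wt/wt library the lowest. It averaged 24.4 ± 5.77% in wt/wt and 36.0 ± 3.86% in fl/fl cells (SD, n = 3 each). On coding transcripts alone the log2 fold change of *Gnl3* was −1.22. With protein-coding transcripts alone, the median of the 60 was −0.49, and *Nop58* and *Npm1* were the 2 past the threshold (background 0.383%).

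Further ribosome biogenesis genes outside the 60 were mostly lower, with a median closer to 0. Of 101 other factors (34 of the 40S subunit, 43 of the 60S subunit, 11 of snoRNP assembly and 13 of the RNA exosome, which trims rRNA precursors), 94 had a negative log2 fold change and 7 a positive, with a median of −0.30. None passed the threshold in edgeR in either direction, where 0.872% of all genes tested fell and 1.28% rose. At an adjusted p below 0.05, 13 were lower and none higher (background 3.38% and 4.45%). At an unadjusted p below 0.05, 42 were lower and none higher (background 10.2% and 12.4%), while DESeq2 passed 11 as lower (background 3.68%). By list, the medians were −0.22 for 40S, −0.35 for 60S, −0.26 for snoRNP assembly and −0.28 for exosome genes. Every fl/fl library lay below every wt/wt library for 50 of the 101, against 15.1% of all genes tested. The smallest adjusted p-values were those of *Exosc7*, *Rrp15*, *Ruvbl1*, *Nifk* and *Npm3*. *Exosc7*, an exosome subunit, had 108, 98.0 and 95.1 CPM in wt/wt and 61.5, 72.7 and 59.3 in fl/fl libraries (log2 fold change −0.64, edgeR adjusted p = 0.0239). *Rrp15* and *Nifk*, both of the 60S list, had log2 fold changes of −0.78 and −0.71, and *Ruvbl1*, an ATPase of snoRNP assembly, had −0.76, each with every fl/fl library below every wt/wt library (edgeR adjusted p = 0.0244, 0.0253 and 0.0252). *Npm3*, a relative of *Npm1*, had the lowest log2 fold change of the 101 at −2.38 (adjusted p = 0.0264, edgeR), from 2.21, 10.2 and 5.08 CPM in wt/wt and 1.33, 0.713 and 1.01 in fl/fl libraries, so its wt/wt libraries spread widely at a low level.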

How the data were processed

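CD27SP NK cells were analysed in 3 libraries of each genotype. Libraries were poly(A)-selected SMART-Seq v4, sequenced single end at 100 bp. The authors deposited, per transcript, estimated counts, which are not normalized, TPM values and effective lengths as other values. The methods and the submitters' processing notes name Salmon and GRCh38, whereas the columns are those of kallisto and the identifiers are of mouse, and versions are not given in the sources used here.

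Estimated counts were summed by symbol through GENCODE M21 (GRCm38), which held 100239 of 100583 transcripts (0.129% to 0.169% of counts unmatched), and rounded. Genes were kept by filterByExpr, normalized by TMM and compared with edgeR 4.0.16 (quasi-likelihood) under R 4.3.3. Replicate numbers entered as a block since the study describes its analysis as paired, and its limits on the adjusted p and the fold change were used. The study required a gene to pass in edgeR, limma-trend and DESeq2 alike, which is an alternative here. Standard errors are the absolute log2 fold change over the root of the F statistic. Across 15474 genes, deviations from the genotype mean correlated at −0.0121, −0.0239 and 0.0554 for replicates 1, 2 and 4, all below 0.1, so libraries may share no more than a number. Replicates differed by more than counting noise (chi-square per degree of freedom 39.2 to 99.0). CPM values are normalized by TMM, and TPM values were summed as deposited. Reads of near-identical copies, such as pseudogenes, can be split between them.

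The 60 members, their roles and all lists were chosen with earlier results of these data known. Library values are given for members past the threshold, the most abundant of each role by mean TPM over all libraries, members above 0, paralogs and some members near the threshold, and for the 5 other factors with the smallest adjusted p in part. The other factor *Utp25* was not matched by symbol. Alternatives were the fit without the block, each replicate left out, the shallow library left out, DESeq2 1.42.0, limma-trend 3.58.1, effective-length offsets, other filters, scalings and thresholds, and protein-coding transcripts alone.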

Additional observations from a re-analysis of the deposited data

How the results depend on the processing

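The direction of the 60 factors held more firmly than the number called. In every fit, 55 of the 60 kept a negative log2 fold change, and the reversals were all close to 0: *Utp20* ran from −0.356 to 0.079 over the left-out replicates (positive without replicate 2), *Nol6* from −0.021 (without replicate 1) to 0.301, *Ddx10* from −0.198 to 0.099 (positive without replicate 1) and *Bysl* from −0.136 to 0.008 (positive without replicate 4), and *Nol6* was at −0.050 without the shallow wt/wt library and the block. The number past the threshold, 6 in all with 3 snoRNP, 1 40S, 1 60S and 1 multifunctional, moved as follows in the same order. It was 13 with 5, 2, 4 and 2 with no replicate block, 24 with 7, 4, 10 and 3 in DESeq2, and 15 with 6, 3, 4 and 2 with no filter on low counts. An adjusted p below 0.05 with no fold change limit gave 24 with 7, 4, 10 and 3. It was 1 with 1, 0, 0 and 0 with effective-length offsets, 2 with 1, 0, 0 and 1 with library sizes alone, and 2 with 1, 0, 0 and 1 with protein-coding transcripts alone. In limma-trend, with the largest adjusted p of the 3 tools, and with TMM factors without ribosomal protein genes, the count was 4 in all, and the 40S and 60S counts were 0 and 0. Without the shallow library and the block the 40S count was 0. Leaving out 1 replicate gave 0 to 5 in all, with 0 to 2, 0 to 1, 0 to 1 and 0 to 1 by role. All 4 roles had 0 without replicate 1, and the 40S and 60S factors also without replicate 2. All genes tested called lower numbered 135 in the fit as reported, 184 with no block, 537 in DESeq2, 378 with no filter, 8 with effective lengths, 25 with library sizes alone, 51 with coding transcripts, 99 in limma-trend and with the 3 tools, 119 without ribosomal protein genes, and 10, 47 and 114 without replicates 1, 2 and 4. The blocked and unblocked medians were −0.522 and −0.505, so the replicate block moved the number called and not the median. Over the left-out replicates the median of all 60 lay between −0.601 and −0.407, that of the snoRNP factors between −0.84 and −0.724, of the 40S factors between −0.488 and −0.304, of the 60S factors between −0.617 and −0.423 and of the multifunctional proteins between −0.683 and −0.521, and for all but the snoRNP factors the value closest to 0 was without replicate 1. Without replicate 1, 15 of the 60 log2 fold changes moved by over 1.5 times, 12 of them towards 0, and without the shallow library and the block 10 did, 8 of them towards 0. Such moves were not counted for the other fits. None of these 10 or 15 was past the threshold as reported. Of the 101 other factors, 11 were lower past the threshold in DESeq2, 6 with no filter, 13 at the adjusted p below 0.05 and 1 without the shallow library and the block. The Myc log2 fold change was −1.623 to −1.304 over the left-out replicates, and missed the threshold without replicate 1 (adjusted p = 0.0105, edgeR). The cause of these shifts was not tested. No fl/fl share, with TPM or without mitochondrial genes, moved by more than the spread between replicates.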
